A study of Acropora aff. hyacinthus sp. E JTL-2012 with 12 samples.

Results

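Fragments of 6 Acropora aff. hyacinthus colonies, a table-forming reef coral, that lived in one back-reef pool, pool 300, were compared by the pool their colony came from. The members were chosen by the labels, the pool a fragment was moved into and the pool of origin, and make up 6 of the 12 libraries of the series. Earlier results of these data were known when the members and the gene lists below were chosen, so the shares of the lists are descriptions. Colonies 2, 7 and 75 originated in pool 300 and were returned to it, and colonies 40, 68 and 70 originated in pool 400 and were moved to pool 300, so the groups hold 3 colonies each and share none. All fragments were transplanted on August 3, 2010 and sampled where they grew, near noon, on August 30, 2011. RNA came from whole polyps. The labels give no genotype, so a group stands for 3 wild colonies, each seen through 1 fragment per pool. Origin cannot be told apart from any other property those colonies share. Nor can it be told apart from placement within pool 300. There every origin 300 fragment was at home and every origin 400 fragment was in a foreign pool. The remaining 6 libraries are the fragments of the same colonies in pool 400 and serve below to show whether a difference was also present there.

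Back-reef pools warm and cool with the tides, and the pool numbered 300 is known as the more variable of the pair. A coral polyp holds cnidarian tissue, photosynthetic algae of the family Symbiodiniaceae inside its gut cells, and bacteria, so polyp RNA is a mixture. A transplant that puts colonies of different origins in a common habitat is meant to separate what a colony carries with it from what the habitat sets at the time of sampling. What it carries may be its genotype or a lasting acclimatization. Gene groups often followed in such corals are heat shock proteins, which refold damaged proteins, AP-1 and TNF receptor signalling, lectins that bind sugars on microbes and algae, skeletal matrix proteins and fluorescent pigments.

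Expression was given for 16980 contigs of an assembled transcriptome, each with a description taken over from the protein it resembled, often one of another phylum. A value is a read count scaled for library size, called a scaled read below. In pool 300 the libraries held 664080, 1287115 and 867726 reads for colonies 2, 7 and 75, and 1351005, 754583 and 915212 for colonies 40, 68 and 70, so the depth ranges of the origins overlapped. A single read was worth 0.586 to 1.45 scaled reads, and contigs near 10 scaled reads therefore rest on few reads. Contig lengths were not used here, so levels are compared between libraries for a contig, never between contigs. One doubt about the labels bears on colonies 40 and 68. For colonies 2, 7, 75 and 70, the deviations of the pool 300 fragment from its group mean correlated with those of the same colony in pool 400, at r from 0.394 to 0.688 over 11903 contigs. For colony 40 this r was -0.22, against 0.169 with the pool 400 library labelled 68. For colony 68 it was 0.0628, against 0.311 with the pool 400 library labelled 40. The labels 40 and 68 thus disagreed between the pools. Each r joins a library of either pool, so these values cannot tell in which pool the labels are wrong. Both colonies are of origin 400, so neither the groups in pool 300 nor the origin means in pool 400 depend on it. Values given for colony 40 or colony 68 alone do, in pool 300 as well.

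Across the transcriptome, origin took 16.7% of the spread of log2 values among the 6 libraries. Under an exact permutation test over the 10 splits into 3 and 3 the two-sided p was 0.7, and the smallest p this design allows is 0.1. The median SD among colonies of one origin was 0.40 on the log2 scale for origin 300 and 0.35 for origin 400. The median absolute difference between origin means, each a mean of 3 colonies, was 0.18. Correlation across contigs between pairs of libraries ran from 0.807 to 0.882 between origins, from 0.816 to 0.855 within origin 300 and from 0.812 to 0.857 within origin 400, where contigs are not independent replicates. The most alike pair joined colony 7 of origin 300 with colony 40 of origin 400, which were also the deepest libraries.

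For each of 11903 contigs with a mean of at least 10 scaled reads over the 12 libraries, the log2 difference was taken as origin 300 minus origin 400, after adding 1 to each value, and tested with limma at a Benjamini-Hochberg adjusted p under 0.05. This called 1 contig, 0.0084% of those tested, and it was higher in origin 400. Unadjusted, 263 contigs had p under 0.05, where 5% of those tested is 595. On the recovered reads edgeR called 0 contigs, with 274 at an unadjusted p under 0.05 and so also fewer than 595, and DESeq2 called 14, of which 8 were higher in origin 300 and 6 in origin 400. A looser description counts contigs whose 3 values of one origin all lay above the 3 of the other. These were 304 contigs higher in origin 300, 2.55% of those tested, and 374 higher in origin 400, 3.14%, together 678 or 5.7%. The share fell with level, from 7.19% of contigs with a mean of 10 to 20 scaled reads to 1.64% of those at 200 or more. Of the 678, 93 also had separate groups in the same direction in pool 400, or 13.7%, and 496 had a difference of the same sign there, or 73.2%. Over all contigs tested, 4.81% had separate groups in pool 400 in either direction and 62.7% had the same sign in both pools. The directions in pool 400 were uneven with the deposited scaling, at 114 contigs separate with origin 300 higher and 458 with origin 400 higher. The median log2 difference over all contigs was -0.22 there, beside 0.02 in pool 300, so sharing a direction with pool 400 was easier for contigs higher in origin 400. The pool 400 fragments come from the same colonies, so these shares describe the colonies and are no second sample of origins.

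The called contig, contig71140, is described as C-type lectin domain family 10 member A, in mammals a receptor of macrophages and dendritic cells that binds galactose-type sugars. In colonies 2, 7 and 75 it stood at 2.90, 10.6 and 3.02 scaled reads. In colonies 40, 68 and 70 it stood at 334, 476 and 161. All 3 colonies from pool 400 were far above all 3 from pool 300. The means were 5.50 ± 4.40 and 324 ± 158 (SD, n = 3 each), 58.8-fold apart, and the log2 difference was -5.71 with a standard error of 0.52 and a limma adjusted p of 0.0291. The same contig gave an edgeR adjusted p of 0.0996 and a DESeq2 adjusted p of 1.42e-21. The limma adjusted p was 0.137 without colony 2, 0.0740 without colony 75, 0.0566 without colony 40 and 0.190 without colony 68, so the call was lost without any one of them. The log2 difference itself was -5.36 to -5.62 in these fits. In pool 400 the same colonies stood at 9.94, 13.1 and 0 for origin 300 and at 299, 362 and 380 for origin 400, a log2 difference of -6.01. In RNA from whole polyps, fewer cells of a type and less RNA per cell cannot be told apart, here and in the results that follow.

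**Figure D1:**
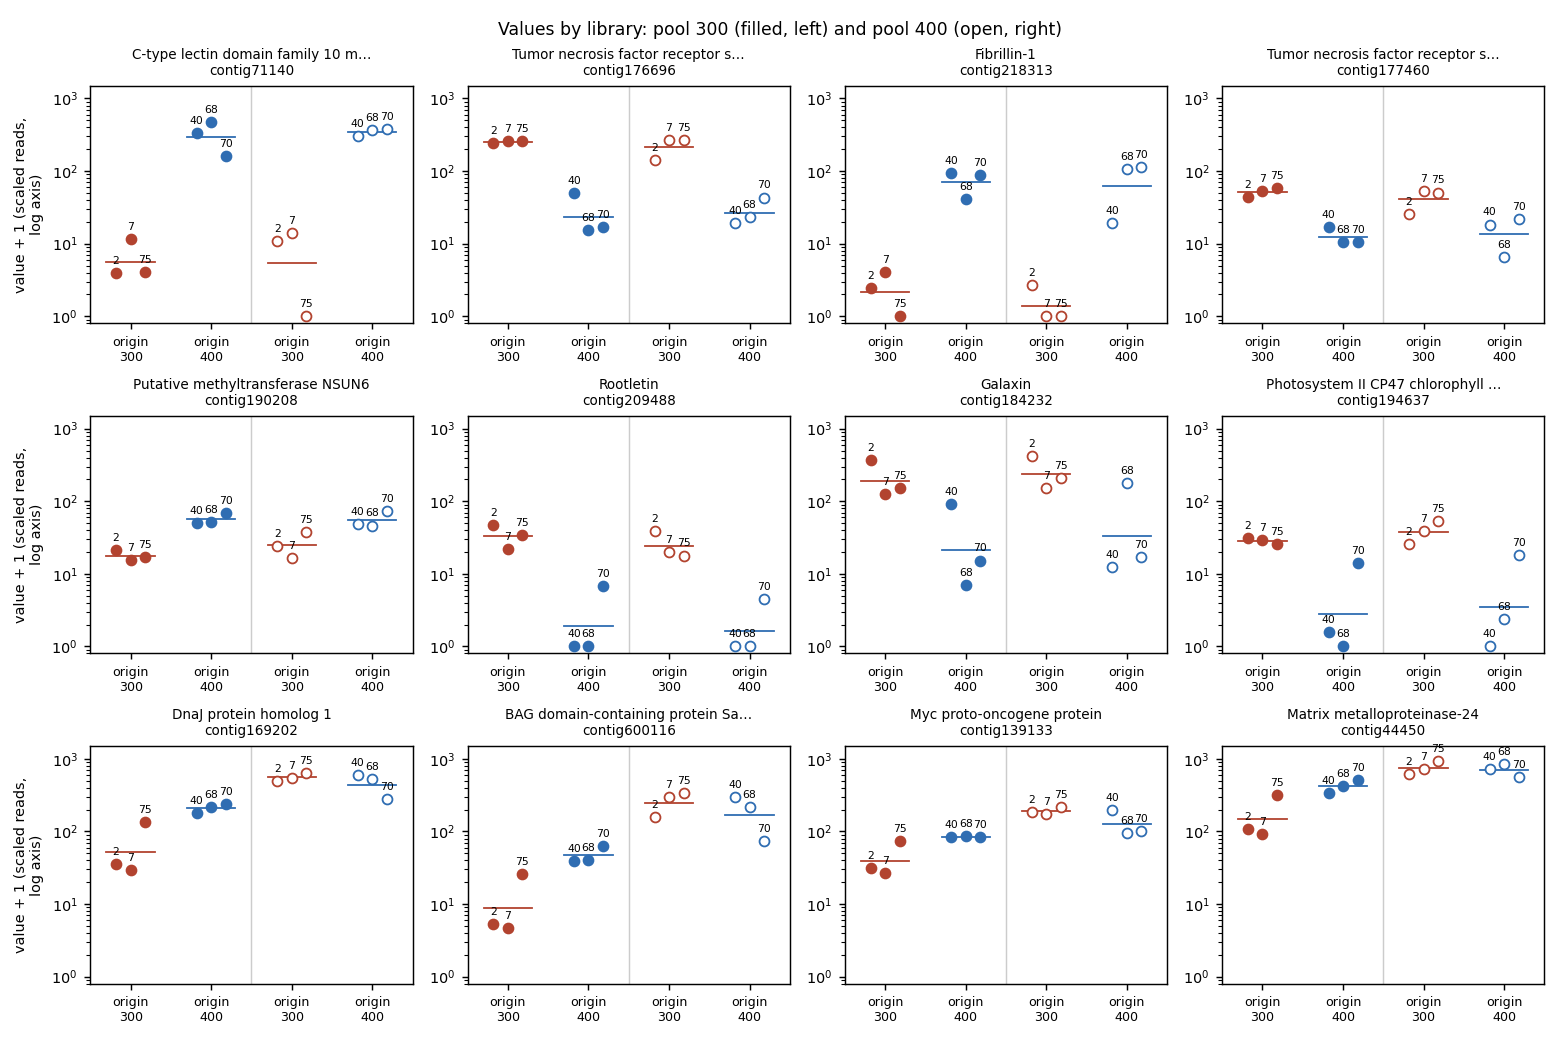
Scaled reads plus 1, on a log axis, of 12 contigs in each library, with pool 300 as filled points on the left and pool 400 as open points on the right of each panel, colonies numbered, red for origin 300, blue for origin 400, and lines at the mean of the log values. In the top and middle rows the difference between origins in pool 300 has the same direction in pool 400, while in the bottom row the origins are apart in pool 300 with colony 75 nearest to origin 400, and they overlap in pool 400.

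Contigs described as tumor necrosis factor receptor superfamily member 16, the neurotrophin receptor p75 of vertebrates, came next in the direction of origin 300. Contig176696 stood at 246, 255 and 257 scaled reads in colonies 2, 7 and 75. In colonies 40, 68 and 70 it stood at 48.7, 14.5 and 16.2. The origin 300 colonies lay within a narrow band and the origin 400 colonies below it. The log2 difference was 3.42 with a standard error of 0.42, and it did not pass the test, with a limma adjusted p of 0.110 beside 5.02e-10 from DESeq2 and 0.318 from edgeR. Without colony 40 it was called by limma, and likewise with a pseudocount of 8 and in a fit of all 12 libraries. A second contig of this description, contig177460, read 43.4, 52.3 and 57.3 in origin 300 and 15.8, 9.63 and 9.51 in origin 400, a log2 difference of 2.07 with a limma adjusted p of 0.362. Both had separate groups in pool 400 as well, with log2 differences of 3.01 and 1.57. A contig described with the added word all, contig205657, read 614, 583 and 643 against 379, 290 and 388, a log2 difference of 0.81, and overlapped in pool 400. The table holds 14 contigs of this description, and 11 passed the minimum mean. Besides the 3 above, 1 had separate groups the other way, and the rest overlapped, with differences from -0.51 to 0.37. Whether the contigs are genes, alleles or pieces of one transcript was not tested, and reads of near-identical contigs may have been split between them.

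The naming rule took the 12 contigs of smallest p in each direction among those with separate groups and an informative description, 24 in all. Of these, 12 also had separate groups in the same direction in pool 400, beside 4.81% of all contigs separate there in either direction, and 21 had the same sign, 87.5% beside 62.7%. Apart from the lectin, none passed the test, and from the seventh smallest p on, each limma adjusted p was 0.9998. They were picked for their difference in pool 300, so those values are a description.

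**Figure D2:**
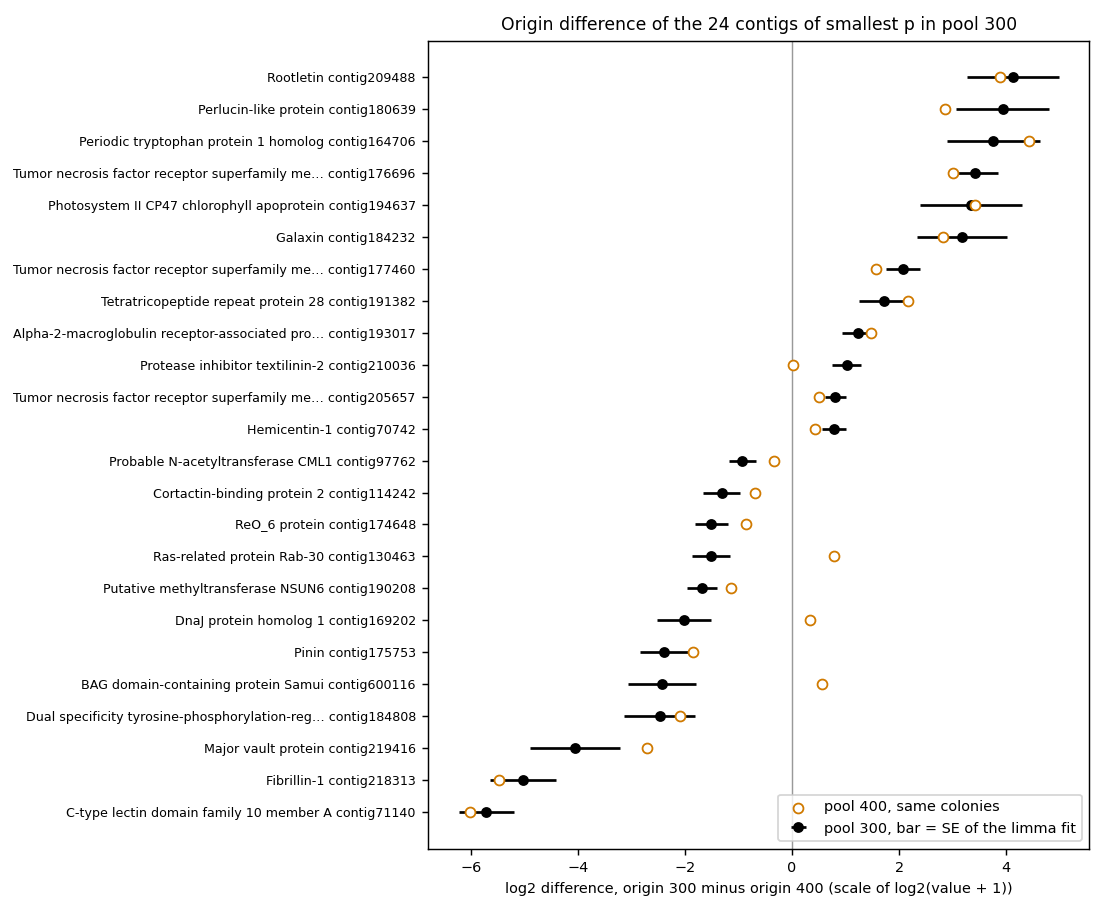
Difference between origins, origin 300 minus origin 400 on the log2 scale, for the 24 contigs named by smallest p, with filled points and bars of 1 standard error for pool 300 and open points for pool 400. For 21 of the 24 the open point lies on the same side of 0 as the filled one, and the 3 exceptions are Rab-30, DnaJ protein homolog 1 and Samui.

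Among contigs higher in origin 400 in both pools, Fibrillin-1 (contig218313), which in vertebrates builds extracellular microfibrils, read 1.45, 3.11 and 0 scaled reads in colonies 2, 7 and 75. In colonies 40, 68 and 70 it read 94.4, 39.7 and 88.5. It rested on few reads in origin 300, with 6 in all against 287 in origin 400. Its log2 difference was -5.03 (SE 0.63) at a limma adjusted p of 0.110. Putative methyltransferase NSUN6 (contig190208), which in humans methylates cytosines in RNA, read 20.3, 14.3 and 16.1 against 49.8, 50.6 and 68.5, a log2 difference of -1.68 with a limma adjusted p of 0.556. Pinin (contig175753), a desmosome and splicing protein in vertebrates, read 4.34, 3.74 and 3.02 against 21.7, 24.1 and 24.7. Major vault protein (contig219416), the shell of the vault particle, read 0, 1.25 and 0 against 15.8, 26.5 and 20.9, from 2 reads in all against 71. For these 4 contigs no value of one origin reached the other origin's in either pool.

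Other named contigs were higher in origin 300 in both pools. Rootletin (contig209488), the protein of the ciliary rootlet, read 46.3, 21.2 and 33.2 scaled reads in colonies 2, 7 and 75. It was 0 in colonies 40 and 68 and 5.71 in colony 70, and in pool 400 it was again 0 in the libraries labelled 40 and 68 and 3.46 in colony 70. Colony 70 thus stood above the others of its origin in both habitats, but on few reads. In pool 300 origin 400 held 6 reads of this contig in all, against 99 in origin 300. Periodic tryptophan protein 1 homolog (contig164706), a ribosome assembly factor in yeast, showed the same order, at 127, 61.6 and 101 against 1.76, 2.41 and 34.3. Photosystem II CP47 chlorophyll apoprotein (contig194637), a light-harvesting core protein made in algal plastids and not by the coral, did so as well, at 30.4, 28 and 25.1 against 0.586, 0 and 13.3. The other algal contig tested, Photosystem Q(B) protein (contig217061), read 55.0, 44.2 and 52.3 against 42.8, 86.7 and 62.8 and overlapped. Alpha-2-macroglobulin receptor-associated protein (contig193017), a chaperone of lipoprotein receptors, read 98.5, 61.6 and 93.6 against 38.1, 43.4 and 25.7. Tetratricopeptide repeat protein 28 (contig191382) read 27.5, 14.9 and 18.1 against 3.52, 6.02 and 6.66. In both the groups were also separate in pool 400.

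Further named contigs higher in origin 300 overlapped in pool 400. Perlucin-like protein (contig180639), named after a lectin of abalone nacre, read 30.4, 13.1 and 35.2 scaled reads against 3.52, 0 and 0. Hemicentin-1 (contig70742), an extracellular matrix protein, read 133, 155 and 114 against 82.1, 67.4 and 81.8, a log2 difference of 0.78. Protease inhibitor textilinin-2 (contig210036), named after a snake venom protein, read 65.2, 44.8 and 72.4 against 25.2, 31.3 and 30.4. Its log2 difference was 1.02 in pool 300 and 0.01 in pool 400. In the direction of origin 400, ReO_6 protein (contig174648), Cortactin-binding protein 2 (contig114242), dual specificity tyrosine-phosphorylation-regulated kinase 4 (contig184808) and Probable N-acetyltransferase CML1 (contig97762) had log2 differences of -1.51, -1.32, -2.47 and -0.93 in pool 300, and of -0.86, -0.70, -2.10 and -0.34 in pool 400.

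Among the 24 contigs named by smallest p, the 3 whose sign turned between pools were all higher in origin 400 in pool 300. In these 3, each colony's value was higher in pool 400 than in pool 300, least so in colony 70. DnaJ protein homolog 1 (contig169202), an HSP40 co-chaperone that delivers clients to HSP70, read 34.8, 28.6 and 133 scaled reads in colonies 2, 7 and 75. In colonies 40, 68 and 70 it read 180, 218 and 236. Colony 75 lay about midway, closer to origin 400 than its origin mates were, and the log2 difference was -2.02 (SE 0.51, limma adjusted p 0.9998). In pool 400 the libraries read 276 in colony 70 and 498 to 636 in the other 5, with a log2 difference of 0.34. BAG domain-containing protein Samui (contig600116), whose BAG domain binds HSP70, read 4.34, 3.74 and 25.1 against 38.7, 39.7 and 62.8, with colony 75 again the highest of its origin. In pool 400 colony 70 read 73.4 and the other 5 libraries 156 to 336. Its log2 difference was -2.43 in pool 300 and 0.56 in pool 400. Rab-30 (contig130463), a small GTPase of the Golgi, read 20.3, 12.5 and 20.1 against 34.0, 69.8 and 55.2, and in pool 400 80.3 in colony 70 and 191 to 358 in the others. Its log2 difference was -1.51 in pool 300 and 0.79 in pool 400.

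Colony 75 had this intermediate place in further contigs named from the gene lists. Matrix metalloproteinase-24 (contig44450), a membrane-bound protease, read 107, 92.2 and 318 scaled reads against 338, 417 and 513. Myc proto-oncogene protein (contig139133), a growth regulator, read 30.4, 25.5 and 72.4 against 83.2, 86.7 and 82.8. In these 2 contigs the origins were separate, with colony 75 just under the lowest origin 400 value. Transcription factor AP-1 (contig211469), the Jun partner of the immediate-early AP-1 dimer, read 210, 164 and 472 against 458, 677 and 614. Protein fosB (contig182044), its Fos partner, read 5.79, 7.47 and 38.2 against 52.8, 54.2 and 38.1. In both of these colony 75 reached into the range of origin 400. Matrix metalloproteinase-24, Myc, AP-1 and fosB had log2 differences of -1.50, -1.11, -1.18 and -1.89 in pool 300. In pool 400 their differences had the other sign, at 0.11, 0.62, 0.42 and 0.34, and the origins overlapped. Desert hedgehog protein A (contig178657), a secreted patterning signal, read 31.9, 38.0 and 114 against 120, 93.9 and 181. Their limma adjusted p-values were 0.9998, and for DnaJ protein homolog 1 the lowest adjusted p over all alternatives, 0.0740, also missed the threshold.

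Whether the difference between origins in pool 300 was unlike that in pool 400 was tested as an interaction over all 12 libraries with colony as a block. With limma 0 of 11903 contigs passed, 0% of those tested, with 211 at an unadjusted p under 0.05, also fewer than 595, and a smallest adjusted p of 0.0771. Among the 24 named contigs the lowest adjusted p of the interaction was 0.9996. The interaction estimates, pool 300 minus pool 400, were -2.35 (SE 0.51) for DnaJ protein homolog 1, -2.99 (SE 0.73) for Samui, -2.29 (SE 0.55) for Rab-30 and -1.61 (SE 0.37) for Matrix metalloproteinase-24. The median over all contigs was 0.20 with the deposited scaling, which these estimates use, and they lie below it. After rescaling the median was -0.06, and the estimates of these contigs under that scaling are not given here. The difference between pools is therefore given for these contigs as values that did not pass the test.

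Heat shock proteins and chaperones leaned toward origin 400 in number of separate contigs and hardly in the list's median. Of 91 tested, 9 had separate groups with origin 400 higher and 1 with origin 300 higher, 11.0% together beside 5.7% of all contigs, and 0 passed the test in either direction. The median log2 difference of the list was -0.05, beside 0.02 over all contigs. Besides DnaJ protein homolog 1 and Samui, Small heat shock protein (contig71477), a chaperone that holds unfolded proteins, read 7.24, 13.7 and 11.1 scaled reads against 21.1, 33.7 and 21.9, a log2 difference of -1.20. The other 6 differed by -0.28 to -0.54, among them T-complex protein 1 subunit alpha (contig70734), part of a folding chamber for actin and tubulin, at 114, 126 and 127 against 146, 155 and 158. This contig was picked after its values were seen. Another subunit of that chamber, T-complex protein 1 subunit theta (contig145645), picked likewise, was the one higher in origin 300, at 240, 257 and 268 against 219, 224 and 239.

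**Figure D3:**
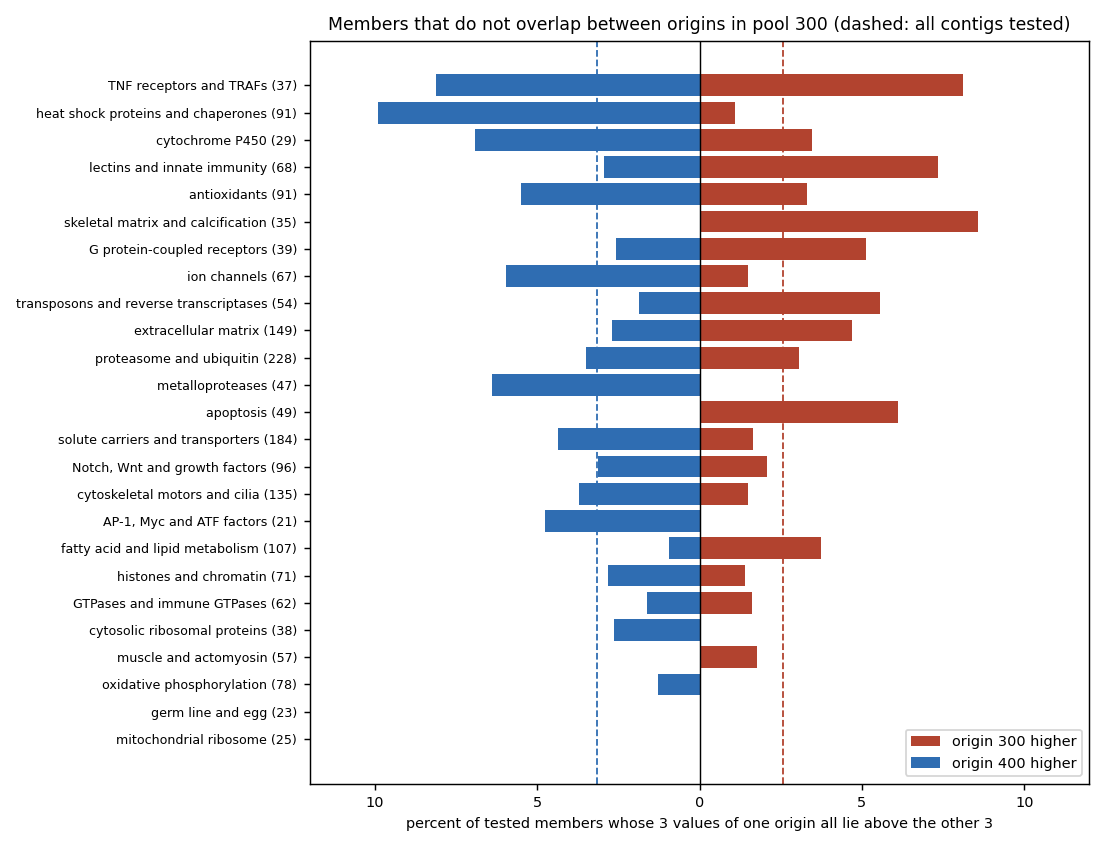
Percent of the tested members of each gene list with at least 20 of them whose 3 values of one origin all lay above the 3 of the other in pool 300, origin 300 higher in red to the right and origin 400 higher in blue to the left, with the number of tested members after each list's name and dashed lines at the shares over all contigs tested. Of 91 heat shock proteins and chaperones 9 lie on the origin 400 side, and of 35 skeletal contigs 3 lie on the origin 300 side and 0 on the other.

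Lectins and innate immune contigs held the called contig and, in the other direction, further lectins. Of 68 tested, 1 of which is a stray match to Plectin, 5 were separate with origin 300 higher and 2 with origin 400 higher, 10.3% together beside 5.7% of all contigs. A contig described as Lectin (contig186685) read 194, 13.1 and 120 scaled reads in colonies 2, 7 and 75. It read 9.96, 7.23 and 8.56 in colonies 40, 68 and 70. Colony 7 was close to origin 400 and colonies 2 and 75 were far above it, in pool 400 as well, where they read 189, 14.0 and 86.6. The limma adjusted p was 0.9998 and that of DESeq2 0.000694. A second contig described as Lectin (contig181017) had colony 7 lowest too, at 88.3, 29.9 and 70.4 against 24.6, 25.3 and 12.4.

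TNF receptors and their TRAF adaptors, which carry TNF signals to NF-kappa-B and to cell death, had 3 contigs separate in each direction among 37 tested, 16.2% beside 5.7% of all contigs. The 3 higher in origin 300 are receptor contigs described above. Those higher in origin 400 included TNF receptor-associated factor 6 (contig186997), picked after its values were seen, at 20.3, 27.4 and 18.1 scaled reads against 31.1, 27.7 and 34.3. The median log2 difference of the list was -0.13. Of 49 apoptosis contigs 3 were separate, 6.12% and so near the share of all contigs. These 3 were higher in origin 300, among them Apoptosis regulator R1 (contig151550) at 43.4, 59.2 and 57.3 against 39.9, 25.3 and 31.4. The log2 difference of this contig was 0.72 in pool 300 and -0.10 in pool 400. Of 21 contigs matched as AP-1, Myc and ATF factors 1 was separate, Myc, and 11 of the 21 are strays such as subunits of the AP-1 adaptor complex, which sorts vesicles.

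Among 35 contigs of the skeletal matrix and calcification, 3 were separate with origin 300 higher and 0 with origin 400 higher, 8.57% beside 5.7% of all contigs. Galaxin (contig184232), which is found in the organic matrix laid down with the skeleton, read 368, 126 and 153 scaled reads in colonies 2, 7 and 75. It read 90.9, 6.02 and 14.3 in colonies 40, 68 and 70. Colony 40 came near the origin 300 range and the other two stayed far below. The log2 difference was 3.17 (SE 0.84, limma adjusted p 0.9998). In pool 400 the library labelled 40 read 11.6 and that labelled 68 read 176, which crossed the origin 300 range of 152 to 419. Both libraries are of origin 400, so the overlap there does not depend on the doubt about their labels. Another Galaxin contig (contig600046) overlapped, at 119, 58.5 and 160 against 87.9, 4.82 and 18.1. Bone morphogenetic protein receptor type-1B (contig105970), a receptor of growth factors that in vertebrates direct bone formation, read 27.5, 28 and 31.2 against 16.4, 19.3 and 21.9, a log2 difference of 0.57.

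None of the 10 fluorescent proteins and chromoproteins tested had separate origins. GFP-like fluorescent chromoprotein amFP486 (contig151799), a cyan pigment first described in an anemone, read 508, 217 and 157 scaled reads against 51.6, 254 and 115. GFP-like fluorescent chromoprotein FP506 (contig152508), a green pigment, read 253, 122 and 119 against 21.1, 299 and 84.7. Colonies 2 and 68 were the highest of their origins and colony 40 the lowest of all 6 in both. The values of the origins overlapped, and the log2 difference of FP506, 0.91, became -0.045 without colony 40.

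Of 149 extracellular matrix contigs, 7 were separate with origin 300 higher and 4 with origin 400 higher, 7.38% beside 5.7% of all contigs, and 66.4% had a difference above 0 beside 52.8% of all contigs. The 7 include the Hemicentin-1 contig above. Collagen alpha-1(XVII) chain (contig152955), an anchoring collagen of vertebrate skin, was among the 4, at 18.8, 15.6 and 16.1 scaled reads against 37.5, 30.1 and 33.3. Of 47 metalloproteases and their inhibitors, 3 were separate, all with origin 400 higher, 6.38% and so near the share of all contigs. Beside Matrix metalloproteinase-24, Metalloproteinase inhibitor 4 (contig169856), which blocks such enzymes, read 85.4, 71.6 and 71.4 against 99.1, 136 and 167. Its log2 difference was -0.78 in pool 300 and 0.68 in pool 400.

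Of 91 antioxidant contigs, 3 were separate with origin 300 higher and 5 with origin 400 higher, 8.79% beside 5.7% of all contigs. Superoxide dismutase [Cu-Zn] 5 (contig114751), which removes superoxide, read 8.69, 18.7 and 17.1 scaled reads against 58.6, 21.7 and 22.8. Its groups were separate in pool 400 as well, where the log2 difference was -2.41. A Peroxidasin homolog (contig600060), a peroxidase that cross-links collagen IV in animals, read 14.5, 9.96 and 22.1 against 32.8, 34.9 and 26.6. Of 107 contigs of fatty acid and lipid metabolism, 4 were separate with origin 300 higher and 1 with origin 400 higher, 4.67% and below the share of all contigs. Pancreatic lipase-related protein 1 (contig184325), a triglyceride lipase relative, read 88.3, 91.5 and 99.6 against 7.03, 10.8 and 83.7. Colony 70 lay with origin 300 here, in pool 400 too, where it read 165. Secretory phospholipase A2 (contig181463), which frees fatty acids from membranes and occurs in venoms, read 30.4, 15.6 and 17.1 against 36.3, 48.2 and 40.9 and was separate in both pools.

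Of 67 ion channel contigs, 4 were separate with origin 400 higher and 1 with origin 300 higher, 7.46% beside 5.7% of all contigs. Calcium-activated potassium channel subunit beta-4 (contig203882), a modulator of potassium channels, read 65.2, 121 and 75.4 scaled reads against 123, 154 and 149, with separate groups in pool 400 too. Of 96 contigs of Notch, Wnt and growth factor signalling, 2 were separate with origin 300 higher and 3 with origin 400 higher, 5.21% and below the share of all contigs. One of the 2 was Transforming growth factor-beta-induced protein ig-h3 (contig202303), an adhesion protein of the matrix, at 161, 163 and 143 against 107, 96.3 and 85.6. Its log2 difference was 0.69 in pool 300 and -0.52 in pool 400, where the origins overlapped. Frizzled-1 (contig191317), a Wnt receptor picked after its values were seen, was separate through near-zero values, at 0, 0 and 1.01 against 104, 3.61 and 1.90. In colony 40 alone it was abundant, and in pool 400 the library labelled 68 held 192 and that labelled 40 held 0. Among 54 transposon contigs, 3 were separate with origin 300 higher and 1 with origin 400 higher, 7.41% beside 5.7% of all contigs. Transposase (contig99694) read 153 in colony 2, where pool 400 gave 97.7, and 0 to 4.02 in the other 5 libraries.

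The remaining lists, read beside the 5.7% of all contigs with separate groups, lay on both sides of it. Of 228 proteasome and ubiquitin contigs 7 were separate with origin 300 higher and 8 with origin 400 higher, 6.58% together, and of 184 transporters 3 and 8, or 5.98%. Of 135 contigs of cytoskeletal motors and cilia the counts were 2 and 5, or 5.19%, with Rootletin one of the 2, and of 71 histone and chromatin contigs 1 and 2, or 4.23%. Of 62 GTPases 1 was separate in each direction, Rab-30 being the one higher in origin 400, and GTPase IMAP family member 4 (contig133039), of a family of immune GTPases, overlapped at 30.4, 16.2 and 47.3 scaled reads against 2.34, 37.3 and 2.85. Of 29 cytochrome P450 contigs 1 and 2 were separate, or 10.3%, and of 39 G protein-coupled receptors 2 and 1, or 7.69%, each share resting on 3 contigs. Of 57 muscle and actomyosin contigs 1 was separate, Myosin-XVIIIa (contig166938), picked after its values were seen, at 468, 410 and 388 against 338, 361 and 319. Of 8 circadian clock contigs, 7 of sterol transfer and ammonium transport, 25 of the mitochondrial ribosome and 23 of the germ line 0 were separate. In these lists limma called 0 contigs.

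Cytosolic ribosomal proteins varied together among colonies along an order that was not that of origin. The median of the 38 tested, relative to the mean of the 6 libraries on the log2 scale, was 0.51 in colony 2, 0.29 in colony 68 and 0.07 in colony 75. It was -0.03 in colony 70, -0.37 in colony 7 and -0.43 in colony 40. Each origin held high and low colonies, and the order was the reverse of the order of depth. The list's median difference between origins was 0.13, with 89.5% of members above 0 beside 52.8% of all contigs. Of the 38, 1 was separate, 2.63% beside 5.7% of all contigs. It was 60S ribosomal protein L23a (contig112626), higher in origin 400 at 21.7, 18.1 and 15.1 scaled reads against 28.7, 78.3 and 25.7. Its log2 difference was -1.06 in pool 300 and 0.38 in pool 400. The 78 oxidative phosphorylation contigs, which build the mitochondrial respiratory chain, had medians from 0.37 in colony 2 to -0.20 in colony 7. Of these, 1 was separate, 1.28% beside 5.7% of all contigs. Cytochrome c1, heme protein, mitochondrial (contig155092), an electron carrier of complex III, overlapped. It read 66.6, 52.3 and 6.04 against 0.586, 7.23 and 9.51, with colony 75 at the level of origin 400. The first principal component of the 6 libraries, with 35.0% of the spread, ran the same way, from 0.64 for colony 2 and 0.41 for colony 68 to -0.43 for colony 7 and -0.45 for colony 40. Depth moved with this order, and its part in it was not tested.

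**Figure D4:**
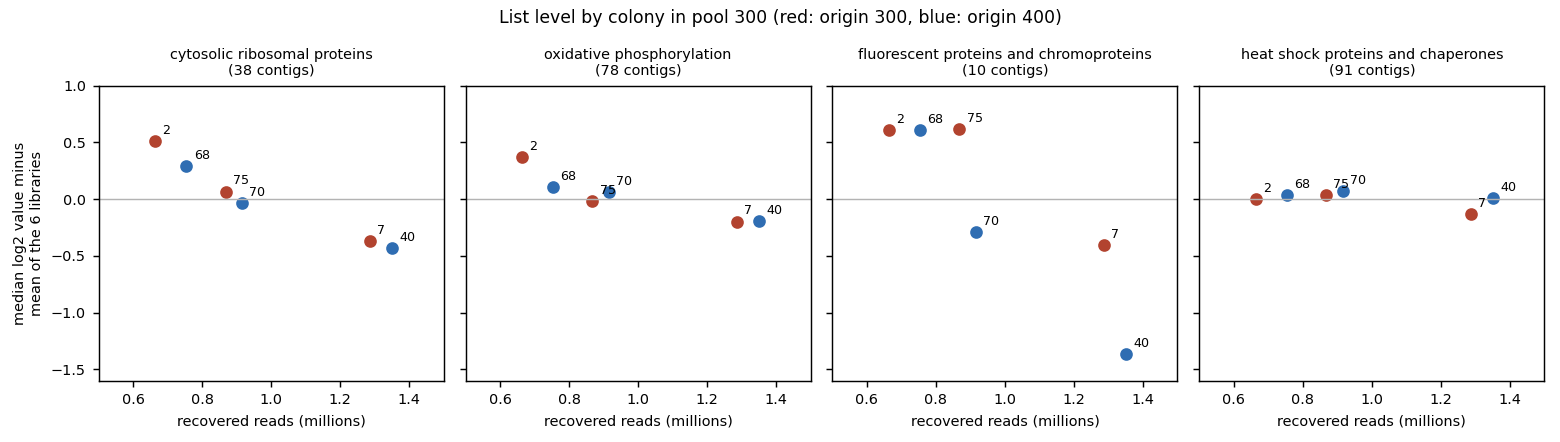
Median log2 value of 4 gene lists in each pool 300 library, relative to the mean of the 6 libraries, against the number of reads recovered from that library, red for origin 300, blue for origin 400 and colonies numbered. Cytosolic ribosomal proteins run from 0.51 in colony 2, the shallowest library, to -0.43 in colony 40, the deepest, while heat shock proteins and chaperones stay between -0.13 and 0.07.

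Markers of other tissues and of the algae were summed over each list to see what moved beside these differences. Muscle contigs summed to 2591 to 3179 scaled reads in origin 300 and 2493 to 2694 in origin 400. Contigs of sperm and cilia summed to 5207 to 5561 and 5113 to 5592, and those of oocytes and germ line to 1618 to 2397 and 1776 to 2642. Cnidocyte contigs, with no contig described as minicollagen or nematogalectin, summed to 48.3 to 57.9 and 52.3 to 111. The 2 Symbiodinium contigs summed to 72.2 to 85.4 and 43.4 to 86.7, and the 3 GFP-like pigment contigs to 378 to 1019 and 109 to 729. Contigs with words for ribosomes of the bacterial type in their description summed to 112 to 152 and 132 to 147. Whether those contigs come from bacteria was not tested. In all of these lists the ranges of the origins overlapped. Galaxin, the marker of skeleton-forming tissue, summed to 184 to 487 in origin 300 and 10.8 to 179 in origin 400, which lay narrowly apart. This sum holds only the 2 Galaxin contigs above. Contig184232 was named because its groups were separate in these libraries, and contig600046 overlapped, so the sum adds nothing to those values. The part of cell composition in the differences above was not tested.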

How the data were processed

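Whole polyp RNA was sequenced from TruSeq libraries, 12 to a lane, per the labels' protocols. Per the submitters' processing notes the authors used BWA and DESeq; their versions and roles are not given in the sources used here. The authors deposited a signal that amounts to reads over a library factor: in pool 300 every value is a whole multiple of what 1 read is worth in its library (tolerance 0.01 reads). The pool 400 columns are marked as adjusted, per the file headers, and how is not given. In pool 300 the deposited factors were 0.979 to 1.03 times median-ratio factors. In pool 400, 1 value of colony 2 was not whole and was read as 0. Another 9 columns of the table were not used.

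The 11903 contigs averaging 10 or more across the 12 libraries entered the tests on log2(value + 1), which understates changes of low contigs, with limma 3.58.1 in R 4.3.3 (variance trend, two-sided, Benjamini-Hochberg), 3 colonies against 3. The interaction used all 12 libraries with colony as a block, since both fragments come from 1 animal; correlations between them are in the report. Alternatives were edgeR 4.0.16 (quasi-likelihood) and DESeq2 1.42.0 on recovered reads, other pseudocounts, minimum means, scalings and variance models, all 12 libraries, and each colony left out. The test was also run on simulated data, and the outcome is not reported here. Of the contigs tested, 8244 had an informative description.

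The text names every called contig and the 12 of smallest p in each direction with separate groups and an informative description. A further rule took up to 3 of smallest p in each of 31 gene lists matched by words in the descriptions. It gave 91 contigs, some of them among those already named. Of the list members the text names 29 more, and no further rule chose these 29. Further rules, for contigs with a mean of at least 500 or at 0 in one origin and 20 or more in the other, found none. Members and lists were chosen with earlier results of these data known. Neither sequences nor a genome were used here.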

Additional observations from a re-analysis of the deposited data

How the results depend on the processing

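Depth limits the low contigs, where 1 read was worth up to 1.45 scaled reads and separate groups were most frequent. Only 1 fragment per colony and pool was sequenced, so variation within a colony cannot be told apart from that between colonies. The count of contigs called between origins in pool 300, 1 with limma, was also 1 with a pseudocount of 0.5, without a minimum mean, with a minimum mean of 50 or of 10 over pool 300 only, after median-ratio rescaling, after quantile normalization and with a robust variance. It was 3 with a pseudocount of 8, 2 with all 12 libraries in the fit, 0 with edgeR and 14 with DESeq2. Leaving out one colony gave 0 to 5 calls, with 0 without colonies 2, 75 or 68, 5 without colony 7 and 3 without colonies 40 or 70. The called lectin was not among those 3 without colony 40. The cause was not tested.

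The groups compared share no colony, so the replicate block applies to the interaction of origin and pool. Its count was 0 with the replicate block, 0 without it and 0 with the pool 400 fragments of colonies 40 and 68 exchanged. After rescaling it was 2, and 0 to 2 with one colony left out, with 2 without colony 70. The share of spread taken by origin was 16.7% after rescaling, 15.8% with a pseudocount of 8 and 15.5% with a minimum mean of 50, at exact permutation p-values of 0.7 to 0.8. Of 875 alternative values for 53 named contigs, 853 kept their direction and side of the threshold. Another 16 in 10 contigs passed it where the reported value did not, and 5 for the lectin lost it. The remaining 1 turned its sign, FP506 (contig152508), which ran from -0.045 without colony 40 to 1.84 without colony 68. Most of these contigs had a limma adjusted p of 0.9998 and were picked by small p. Keeping their side and sign was therefore largely given beforehand and says little about the differences.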

Other observations

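Several contigs without an informative description, outside the naming rule and picked after their values were seen, were apart between origins in pool 300 as well. Contig58852, a putative uncharacterized protein, read 0, 9.96 and 1.01 scaled reads in colonies 2, 7 and 75 and 70.3, 65.0 and 55.2 in colonies 40, 68 and 70, a log2 difference of -4.52 with a limma adjusted p of 0.698. It was called by DESeq2, and in pool 400 it read 0, 2.62 and 1.06 against 58.7, 46.7 and 88.6. Contig179435 read 222, 141 and 204 against 4.69, 24.1 and 51.4. In pool 400 its groups overlapped, at 33.1, 169 and 133 against 95.0, 1.37 and 33.2. Contig126418 was low in colonies 7 and 75, at 0 and 1.01, and read 15.9 in colony 2, against 34.6, 37.3 and 56.1 in origin 400.

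Below the minimum mean, and likewise picked after their values were seen, Myosin-2 heavy chain (contig65950), a motor of contractile cells, read 0 in all 3 fragments of origin 300 and 11.7, 10.8 and 13.3 in colonies 40, 68 and 70. In pool 400 it read 1.66, 0 and 0 against 9.92, 11.0 and 13.9. In a limma fit without a minimum mean its adjusted p was 0.340. Probable serine/threonine-protein kinase pats1 (contig190966) was also at 0 in origin 300, against 5.86, 9.63 and 9.51.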
